A study of Mus musculus with 24 samples.

Results

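Macrophage identity and activation were followed through 10 genes, namely Adgre1, Cd68, Mrc1, Cd163, Arg1, Nos2, Chil3, Retnla, Gpnmb and Trem2. They were taken by gene symbol, and all 10 were found among the 18368 genes of the expression table. In day 3 skin wounds the general macrophage genes Adgre1 and Cd68 and the activation genes Arg1, Chil3 and Trem2 were higher than in unwounded skin of the same mouse in 12 of 12 mice. Nos2 and Gpnmb also had this direction in every mouse, which was shared by 14.4% of the 14423 genes tested. Adgre1, Cd68, Arg1, Chil3 and Trem2 passed the test for a wound effect at each of 3 body sites, as did 3.31% of genes. Chil3 entered it through its wound libraries, and Gpnmb did not pass it at any site. The resident macrophage genes Mrc1 and Cd163 did not pass the test at any site. The secreted factor Retnla was lower in the wound of 12 of 12 mice, as were 9.81% of genes tested, and did not pass it. Nos2, the inflammatory member, passed it in back and cheek and lay just over the threshold in abdomen. It was the only member to pass a test between sites, with higher levels in back than in abdomen wounds, as for 0.506% of 14023 genes. That call was lost in 7 of 12 fits that each left out 1 mouse. No member passed the F test for a wound effect that differed between sites.

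Macrophages of the healthy dermis are long-lived phagocytes that take up debris, iron and spent proteins through scavenger and lectin receptors. After injury, blood monocytes enter the wound and become macrophages whose gene expression depends on local signals. Microbial products and interferon induce Nos2, interleukin-4 and interleukin-13 acting through the transcription factor STAT6 induce Arg1, Chil3 and Retnla, and phagocytosis and lipid uptake go with Gpnmb and Trem2. In wounds these programmes overlap, and several of the genes are also made by cells other than macrophages. Arginase 1 is made by keratinocytes, Gpnmb by melanocytes and osteoclasts, and Retnla by adipose tissue.

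Whole-skin RNA of 12 CD-1 mice, an outbred stock, gave 24 libraries. The mice were 7 weeks old when wounded. Each mouse gave 1 library of unwounded skin and 1 library of a full-thickness punch wound at day 3, both from the same site, with 4 mice for each of abdomen, back and cheek. All mice were wounded, so the unwounded skin came from animals with a wound at that site, and cheek mice had a single wound while abdomen and back mice had a pair. FPKM values (fragments per kilobase of transcript and per mapped fragments of the library) were deposited. These take account of gene length and library size, but do not add up to the same sum in each library, so levels compare only approximately between libraries. Their sum ranged from 490830 to 561753 in unwounded and from 532586 to 608888 in wound libraries, and 15781 to 16577 genes were above 0. FPKM do not carry fragment counts, so the depth is unknown and no counting interval was given. Wound effects are differences in log2(FPKM + 0.5) between both libraries of a mouse, wound minus unwounded, tested with limma with a term for each mouse, and a gene was said to rise or fall at an adjusted p under 0.001. Adding 0.5 understates the change of genes below about 1 FPKM.

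Bases upstream of 4 members are shown because Retnla and Chil3, which share an inducing pathway, differed in direction (Chil3 rose, and Retnla was lower in the wound of every mouse), and because Cd68 and Trem2 rose at each site. Each run is the 250 bases before the transcription start in the 5′ to 3′ direction of the gene, from RefSeq on GRCm38.p6, and capitals mark motif matches. The windows are chr16:48842359-48842608 (plus strand) for Retnla, chr3:106167565-106167814 (minus strand) for Chil3, chr11:69666171-69666420 (minus strand) for Cd68 and chr17:48346151-48346400 (plus strand) for Trem2.
Retnla: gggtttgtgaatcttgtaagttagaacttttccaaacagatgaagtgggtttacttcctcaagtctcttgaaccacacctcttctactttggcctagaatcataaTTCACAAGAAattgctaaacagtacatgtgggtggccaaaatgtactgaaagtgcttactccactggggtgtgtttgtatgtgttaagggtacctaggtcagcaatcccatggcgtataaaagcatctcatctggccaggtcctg
Chil3: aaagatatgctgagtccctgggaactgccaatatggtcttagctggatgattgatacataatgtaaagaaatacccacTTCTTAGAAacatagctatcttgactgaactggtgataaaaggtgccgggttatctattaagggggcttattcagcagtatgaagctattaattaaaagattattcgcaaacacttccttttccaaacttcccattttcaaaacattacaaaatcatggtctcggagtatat
Cd68: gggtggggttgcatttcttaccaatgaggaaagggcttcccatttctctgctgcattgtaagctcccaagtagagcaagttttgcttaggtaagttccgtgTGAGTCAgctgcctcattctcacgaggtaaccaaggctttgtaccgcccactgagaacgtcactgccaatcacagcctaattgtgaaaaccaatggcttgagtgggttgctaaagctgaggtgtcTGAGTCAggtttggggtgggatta
Trem2: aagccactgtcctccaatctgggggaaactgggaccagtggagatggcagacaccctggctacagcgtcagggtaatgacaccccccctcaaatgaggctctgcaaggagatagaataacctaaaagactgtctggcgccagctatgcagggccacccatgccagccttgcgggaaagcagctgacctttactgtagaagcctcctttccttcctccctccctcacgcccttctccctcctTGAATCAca
Windows from 250 bases before to 50 bases after the start were listed for 7 of the 10 members (Cd68, Mrc1, Cd163, Chil3, Retnla, Gpnmb and Trem2). These were searched on both strands for 3 motifs picked after the windows had been read. The STAT6 motif, TTC and GAA with any 4 bases between them, was present in 6.95% of 32851 windows of this length, and among the members only in Retnla, 145 bases upstream. A related motif, TTC and GAA with any 3 bases between them, was present in 8.30% of windows, and among the members only in Chil3, 172 bases upstream. The AP-1 motif was searched as TGANTCA, with any base at its centre, and was present in 7.81% of windows. It was found 149 and 24 bases upstream of Cd68, 9 bases upstream of Trem2 and at base 9 after the start of Gpnmb. The matches read TGAGTCA in Cd68, TGACTCA in Gpnmb and TGAATCA, with A at the centre, in Trem2. None of these matches overlapped another, and Mrc1 and Cd163 had none of the 3 motifs. Letters in a window are a description and were not related to the expression values.

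The pan-macrophage genes rose at all 3 sites. Adgre1 encodes F4/80, the surface receptor used to mark mouse macrophages, and lies on chromosome 17 from 57358581 to 57483529 (GRCm38), where it overlaps the predicted genes Gm18069 and Gm20243. In unwounded skin it stood at 17.7, 26.9, 19.8 and 20.4 FPKM in abdomen mice 1 to 4, at 18.9, 17.8, 22.0 and 15.9 in back and at 24.2, 19.9, 20.3 and 13.2 in cheek. In wounds it stood at 31.4, 47.7, 40.0 and 46.7 FPKM in abdomen, at 52.4, 55.4, 47.8 and 44.5 in back and at 54.0, 54.6, 40.8 and 36.9 in cheek. All 12 wound libraries lay above all 12 unwounded libraries, as did those of 5.57% of the 14423 genes tested. The abdomen, back and cheek had log2 wound effects of 0.95, 1.40 and 1.25 (SE 0.10 each), with limma adjusted p of 4.34e-05, 9.83e-07 and 2.70e-06, respectively. In FPKM the wound level was between 1.77 and 3.11 times the unwounded level of the same mouse. In bulk tissue, a change in the number of macrophages and a change in RNA per macrophage cannot be told apart, here or for the other members.

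Cd68 encodes macrosialin, a glycoprotein of the endosomes and lysosomes of phagocytes, and lies on chromosome 11 from 69664213 to 69666170. Unwounded levels were 52.4, 67.5, 68.4 and 50.7 FPKM in abdomen, 59.7, 60.3, 99.8 and 42.4 in back and 60.7, 50.6, 53.6 and 44.5 in cheek. Wound levels were 141, 146, 161 and 218 FPKM in abdomen, 200, 200, 247 and 213 in back and 177, 207, 196 and 149 in cheek. The lowest wound library therefore lay above the highest unwounded library, which was that of back mouse 3, as for 5.57% of genes tested. The log2 wound effects were 1.46, 1.77 and 1.79 (SE 0.17 each) in abdomen, back and cheek (limma adjusted p of 6.50e-05, 6.13e-06 and 7.24e-06). Cd68 was higher relative to Adgre1 in the wound than in the unwounded library of every mouse. The ratio of their FPKM had a median of 2.81 over unwounded and 4.04 over wound libraries, and a ratio to Adgre1 that was higher in 12 of 12 mice occurred in 1.76% of genes tested.

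**Figure D1:**
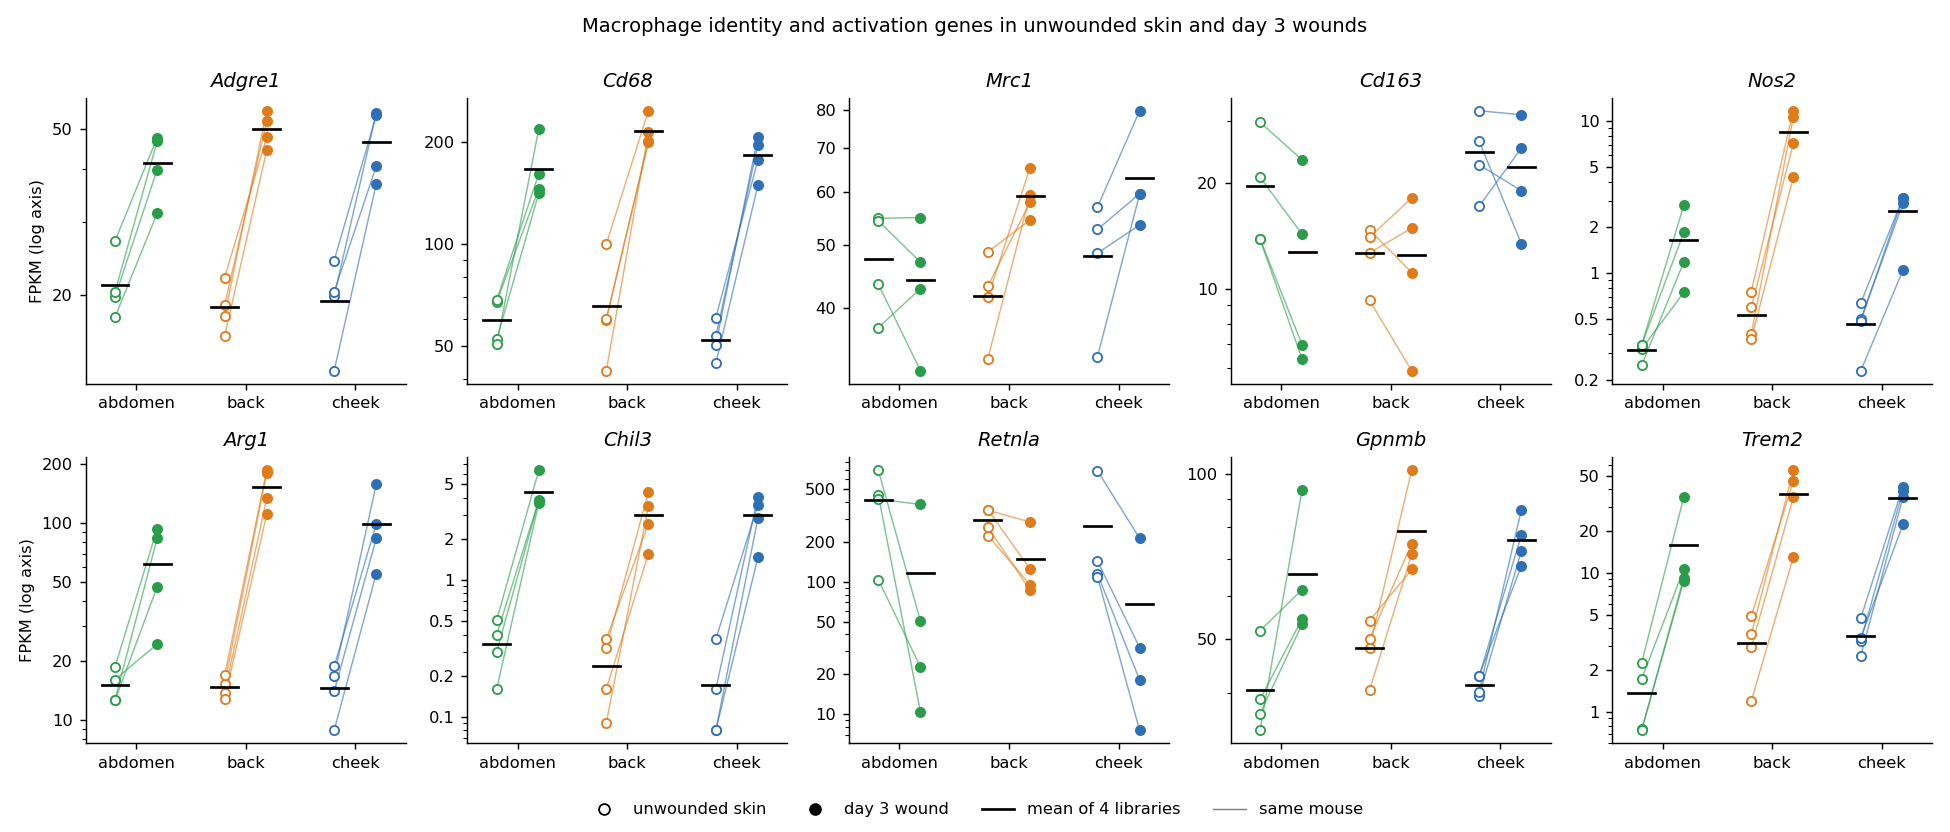
FPKM (log axis) of the 10 members in each of 24 libraries, with open circles for unwounded skin, filled circles for day 3 wounds, thin lines joining the libraries of a mouse and black bars for the mean of 4. All 12 wound libraries lie above all 12 unwounded ones for Adgre1, Cd68, Arg1, Chil3 and Trem2, as for 5.57% of genes tested. Mrc1, Cd163 and Retnla overlap, and Retnla is lower in the wound of every mouse.

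The resident genes were not called at any site. Mrc1 encodes the mannose receptor CD206, an endocytic receptor for mannosylated glycoproteins and collagen fragments, and lies on chromosome 2 from 14229414 to 14332023, where it is host to the microRNA gene Mir511. Unwounded levels were 37.4, 54.8, 43.5 and 54.3 FPKM in abdomen, 43.3, 33.6, 48.7 and 41.6 in back and 57.0, 52.7, 48.5 and 33.8 in cheek. Wound levels were 42.9, 55.0, 32.2 and 47.0 FPKM in abdomen, 58.0, 59.5, 54.5 and 65.4 in back and 79.8, 59.7, 53.5 and 59.6 in cheek. Wound and unwounded libraries did not overlap in back, as for 25.0% of genes, and the wound was higher in 4 of 4 mice, but they overlapped in abdomen (higher in 2 of 4) and in cheek (higher in 4 of 4). The log2 wound effects of abdomen, back and cheek were -0.11, 0.51 and 0.40 (SE 0.13 each), and the limma adjusted p of 0.553, 0.00745 and 0.0306 did not reach the threshold of 0.001.

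Cd163 encodes the scavenger receptor for haemoglobin bound to haptoglobin and lies on chromosome 6 from 124304636 to 124330529, overlapping the predicted gene Gm52877. Unwounded levels were 20.8, 29.8, 13.9 and 13.9 FPKM in abdomen, 12.7, 14.7, 9.30 and 14.1 in back and 32.1, 26.3, 22.5 and 17.2 in cheek. Wound levels were 14.3, 23.3, 6.96 and 6.33 FPKM in abdomen, 14.9, 11.2, 5.88 and 18.2 in back and 31.2, 13.5, 19.0 and 25.1 in cheek. The wound library was the lower in 4 of 4 abdomen mice, 2 of 4 back mice and 3 of 4 cheek mice, and the groups overlapped at every site. The log2 wound effects of -0.72, -0.11 and -0.17 (SE 0.22 each) had limma adjusted p of 0.0231, 0.714 and 0.568. Leaving out back mouse 3 turned the back effect to 0.07, and leaving out cheek mouse 2 turned the cheek effect to 0.09. Cd163 was below Mrc1 in every library, and its ratio to Mrc1 was lower in the wound in 12 of 12 mice, as for 9.04% of genes tested, with a median of 0.452 over unwounded and 0.267 over wound libraries.

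Nos2, the inflammatory member, encodes inducible nitric oxide synthase, which makes nitric oxide from arginine, and lies on chromosome 11 from 78920787 to 78960226. It was close to the floor of the measurement in unwounded skin, at 0.34, 0.32, 0.34 and 0.25 FPKM in abdomen, 0.60, 0.40, 0.76 and 0.37 in back and 0.50, 0.64, 0.49 and 0.23 in cheek. In wounds it stood at 2.80, 0.75, 1.86 and 1.19 FPKM in abdomen, at 7.14, 10.6, 11.7 and 4.30 in back and at 2.88, 3.14, 3.14 and 1.05 in cheek. Wound libraries lay above the unwounded libraries of the same site without overlap, as did those of 13.4%, 25.0% and 16.7% of genes in abdomen, back and cheek, with mean levels 5.28, 15.8 and 5.49 times as high. Nos2 rose in back (log2 wound effect 3.04, SE 0.22, limma adjusted p 1.02e-06) and in cheek (1.6, SE 0.22, adjusted p 1.79e-04). In abdomen its effect of 1.31 (SE 0.22) had a limma adjusted p of 0.00109, just over the threshold. In abdomen it passed without abdomen mouse 2 (adjusted p 6.77e-04), without cheek mouse 4 (8.76e-04) or with a pseudocount of 0.1 (1.83e-04). The cheek call was lost without cheek mouse 1, 2 or 3, with limma adjusted p of 0.00140, 0.00159 and 0.00172 at effects of 1.55, 1.57 and 1.51, and when the 8 cheek libraries were fitted alone (0.00183).

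The 3 alternative activation genes did not move together. Arg1 encodes arginase 1, which turns arginine into ornithine and urea and so draws on the substrate of Nos2, and lies on chromosome 10 from 24915207 to 24927470, overlapping the predicted gene Gm40616. Unwounded levels were 12.7, 18.6, 12.6 and 16.1 FPKM in abdomen, 13.8, 15.2, 16.9 and 12.8 in back and 14.0, 18.7, 16.7 and 8.88 in cheek. Wound levels were 83.7, 93.5, 47.5 and 24.3 FPKM in abdomen, 133, 180, 185 and 111 in back and 83.9, 98.9, 157 and 55.4 in cheek. Every wound library was above every unwounded one, as for 5.57% of genes tested, and the abdomen wound of mouse 4 was the lowest of the wound libraries. Arg1 rose in abdomen (log2 effect 1.86, SE 0.26, limma adjusted p 4.27e-04), back (3.31, SE 0.26, adjusted p 3.30e-06) and cheek (2.67, SE 0.26, adjusted p 2.07e-05). The abdomen call was lost without abdomen mouse 1, 2 or 3, with limma adjusted p of 0.00254, 0.00272 and 0.00306 at effects of 1.58, 1.71 and 1.85. Relative to Nos2, Arg1 was far the more abundant, and the ratio of their FPKM had a median of 35.8 over unwounded and 27.4 over wound libraries, higher in the wound in 5 of 12 mice.

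Chil3 encodes Ym1, a secreted chitinase-like lectin of macrophages and neutrophils, and lies on chromosome 3 from 106147554 to 106167564. It was nearly absent from unwounded skin, at 0.40, 0.51, 0.30 and 0.16 FPKM in abdomen, 0.16, 0.37, 0.32 and 0.09 in back and 0.37, 0.16, 0.08 and 0.08 in cheek. In wounds it stood at 3.83, 6.34, 3.81 and 3.66 FPKM in abdomen, at 1.56, 2.58, 4.40 and 3.48 in back and at 3.56, 4.05, 2.84 and 1.47 in cheek. The lowest wound library held 1.47 FPKM and the highest unwounded library 0.51, a separation found for 5.57% of genes tested. The log2 wound effects were 2.53, 2.2 and 2.32 (SE 0.20 each), with limma adjusted p of 4.74e-06, 4.51e-06 and 3.76e-06. Chil3 entered this fit through its wound libraries, since it was below 0.5 FPKM in 11 of 12 unwounded ones, and its fitted effect is set in part by the added 0.5, ranging from 1.65 to 3.53 over the other settings and sites. Of its 100-base windows, 4.93% are shared with the related genes Chil4 and Gm6522, so a small part of its reads could have been assigned to either.

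Retnla encodes RELM-alpha, also called FIZZ1, a secreted cysteine-rich protein, and lies on chromosome 16 from 48842609 to 48844461. It was the most abundant member in unwounded skin, at 104, 450, 695 and 421 FPKM in abdomen, 223, 349, 258 and 346 in back and 689, 115, 109 and 143 in cheek. Wound levels were 22.7, 10.3, 50.3 and 383 FPKM in abdomen, 95.0, 125, 86.6 and 283 in back and 213, 18.1, 7.54 and 31.8 in cheek. The wound library was the lower in 12 of 12 mice, a direction shared by 9.81% of genes tested, and the wound level ranged from 0.0229 to 0.911 of the unwounded level. Because levels differed so much between mice, wound and unwounded libraries overlapped at each site. The log2 wound effects were -2.86, -1.14 and -2.56 (SE 0.67 each) at abdomen, back and cheek, and the limma adjusted p of 0.00879, 0.185 and 0.0129 did not reach 0.001. Without abdomen mouse 4, whose wound kept 383 FPKM, the abdomen effect was -3.78.

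The lipid-handling and repair genes were both higher in the wounds of all 12 mice, as were 14.4% of genes tested, but by different amounts. Trem2, a lipid-sensing receptor that signals through the adaptor Tyrobp, lies on chromosome 17 from 48346401 to 48352276. Unwounded levels were 1.73, 0.75, 0.74 and 2.26 FPKM in abdomen, 4.90, 2.92, 1.2 and 3.62 in back and 4.75, 2.54, 3.27 and 3.43 in cheek. Wound levels were 10.7, 8.81, 9.28 and 35.2 FPKM in abdomen, 46.0, 35.2, 13 and 54.8 in back and 41.8, 35.1, 39.0 and 22.4 in cheek. All wound libraries were above all unwounded libraries, as for 5.57% of genes tested. Within a mouse the wound level was between 6.16 and 15.6 times the unwounded level. Trem2 rose at abdomen, back and cheek, with log2 effects of 2.97, 3.31 and 3.12 (SE 0.20 each, limma adjusted p of 2.31e-06, 3.87e-07 and 6.47e-07).

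Gpnmb, a glycoprotein of lysosomes and melanosomes, lies on chromosome 6 from 49036518 to 49058182. Unwounded levels were 36.6, 51.9, 38.9 and 34.2 FPKM in abdomen, 50.1, 40.5, 54.1 and 48.2 in back and 42.8, 39.5, 40.2 and 43.0 in cheek. Wound levels were 53.3, 61.6, 54.5 and 93.7 FPKM in abdomen, 74.6, 71.4, 67.1 and 102 in back and 77.3, 72.3, 85.9 and 68.0 in cheek. At each site the wound libraries lay above the unwounded ones, as for 13.4%, 25.0% and 16.7% of genes tested in abdomen, back and cheek. Mean levels were 1.63, 1.63 and 1.83 times as high. The log2 effects of 0.68, 0.69 and 0.86 (SE 0.17 each) had limma adjusted p of 0.00848, 0.00486 and 0.00166, short of the threshold. Without abdomen mouse 4, whose Gpnmb level in the wound was 2.74 times that in unwounded skin, the abdomen effect was 0.42 (limma adjusted p 0.0375), while the adjusted p was 5.52e-04 in back and 1.68e-04 in cheek.

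**Figure D2:**
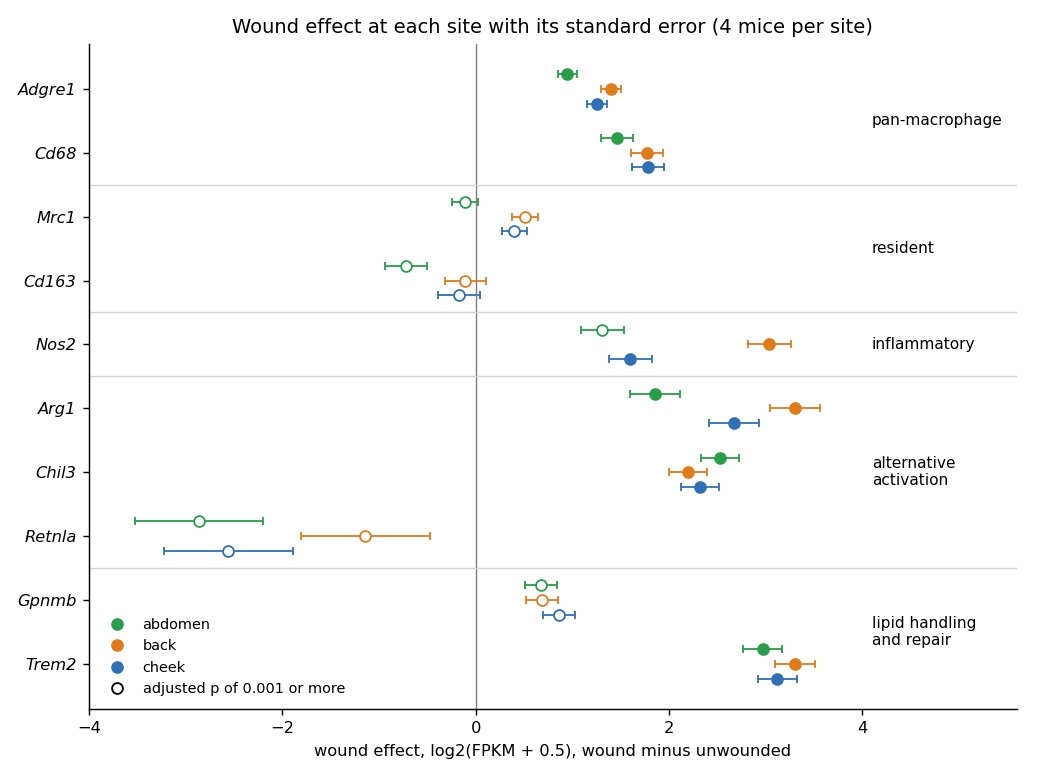
Log2 wound effect (horizontal axis) of each member at abdomen, back and cheek with its standard error, 4 mice per site, filled where the limma adjusted p was under 0.001. Resident genes lie between -0.72 and 0.51, none of them filled, Gpnmb between 0.68 and 0.86, and Arg1, Chil3 and Trem2 between 1.86 and 3.31.

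Counted together, 5 of the 10 members rose in abdomen wounds (Adgre1, Cd68, Arg1, Chil3 and Trem2), where 3.92% of the 14423 genes tested rose and 4.96% changed in either direction. The same 5 and Nos2 rose in back, where 10% of genes rose and 14.4% changed, and in cheek, where 6.50% rose and 8.69% changed. No member fell at this threshold, where 1.04%, 4.37% and 2.19% of genes fell, although 9, 8 and 9 of the 10 had an unadjusted p under 0.05 in abdomen, back and cheek, as did 44.3%, 53.5% and 46.4% of genes tested. Those 5 members were called at all 3 sites, as were 3.31% of genes tested. At an adjusted p under 0.05, which 32.9%, 45.9% and 36.6% of genes passed, the counts were 9, 8 and 9. This added Cd163, Nos2, Retnla and Gpnmb in abdomen, Mrc1 and Gpnmb in back, and Mrc1, Retnla and Gpnmb in cheek. When only the 8 abdomen libraries were fitted, the abdomen count fell to 1 (Chil3), with Trem2 at an adjusted p of 0.00105. Chil3 entered these fits through its wound libraries, so its part in each of these counts is not independent of the filter.

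Dividing each member by Adgre1 in the same library sets the activation genes beside a general macrophage gene. The ratios of Nos2, Chil3 and Trem2 to Adgre1, like that of Cd68, were higher in the wound in 12 of 12 mice. This was so for 1.76% of genes tested. Chil3 entered the genes tested through its wound libraries, and Chil3 and Nos2 were near the floor of the measurement in unwounded skin. The median ratio went from 0.144 in unwounded skin to 0.639 in wounds for Trem2, from 0.0216 to 0.0673 for Nos2 and from 0.0115 to 0.0762 for Chil3. Arg1 was higher relative to Adgre1 in 11 of 12 mice, with a median ratio of 0.748 in unwounded and 2.23 in wound libraries, and the exception was abdomen mouse 4. The ratio of Mrc1 to Adgre1 went from a median of 2.32 to 1.15 without overlap between the 12 unwounded and the 12 wound libraries, as for 48.9% of genes tested, and that of Cd163 from 0.993 to 0.346, both lower in 12 of 12 mice. A lower ratio to Adgre1 in every mouse was common, however, and occurred in 79.9% of genes tested. Gpnmb was lower relative to Adgre1 in 10 of 12 mice, from a median ratio of 2.03 to 1.43. Relative to Mrc1, Trem2 stood at a median ratio of 0.0578 in unwounded skin and 0.556 in wounds, and stayed below Mrc1 in every library. The ratio of Arg1 to Mrc1 had a median of 0.329 in unwounded skin and 1.70 in wounds, with wound values from 0.516 to 3.40. For both genes all wound ratios to Mrc1 lay above all unwounded ones, as for 2.29% of genes tested.

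**Figure D3:**
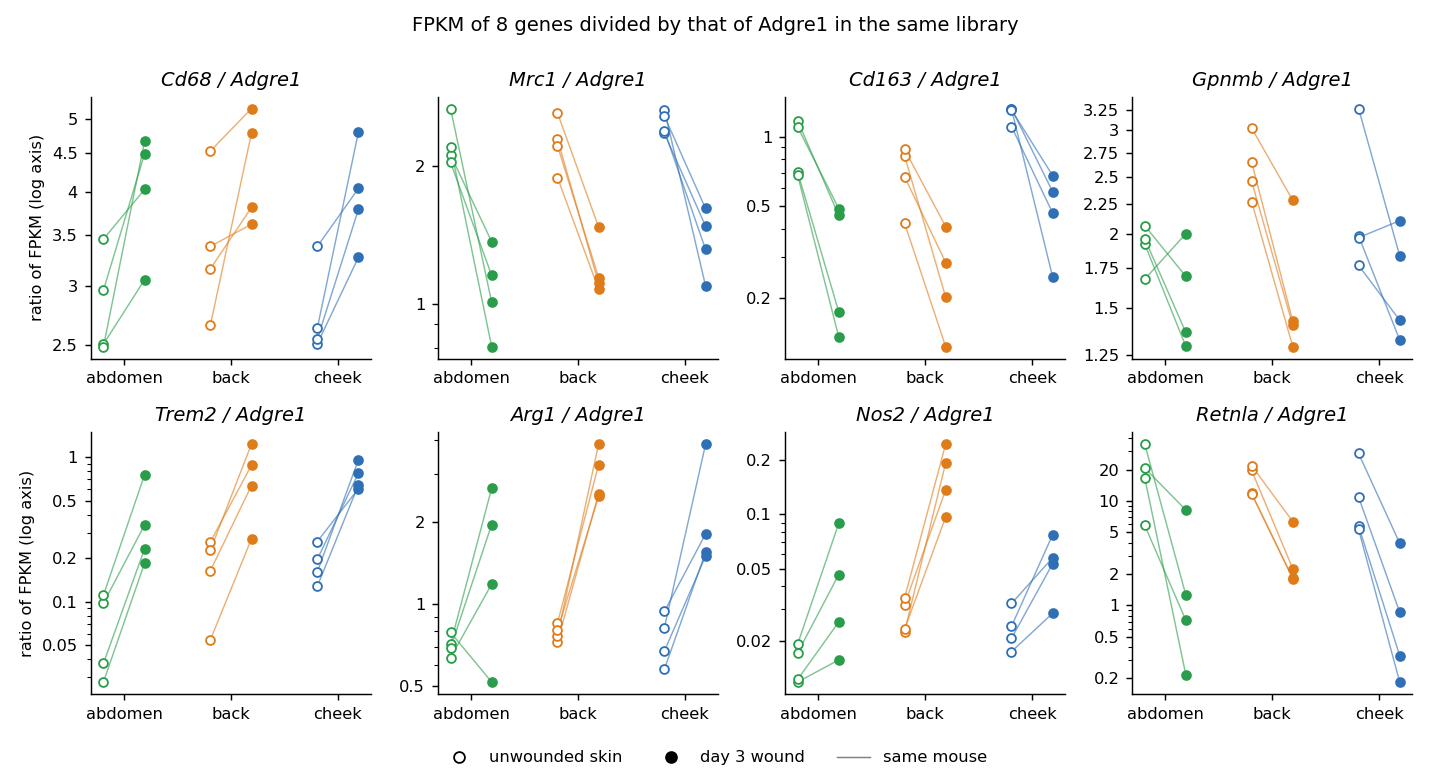
Ratio of the FPKM of 8 members to that of Adgre1 in the same library (log axis) at abdomen, back and cheek, with open circles for unwounded skin, filled circles for wounds and lines joining the libraries of a mouse. The ratio was higher in the wound in 12 of 12 mice for Cd68, Trem2 and Nos2, as for 1.76% of genes tested. It was lower in 12 of 12 for Mrc1, Cd163 and Retnla, as for 79.9% of genes tested.

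Other genes of macrophages were grouped in lists to set the members in context. The RNA was of whole skin, and the part of other cells in the values of these lists was not tested. Among all 14423 genes tested, 3.92%, 10% and 6.50% rose at abdomen, back and cheek, and 1.04%, 4.37% and 2.19% fell. The counts of every list below stand beside these shares, and no list was tested against them. Of 18 general macrophage genes, 11, 16 and 15 rose at abdomen, back and cheek and none fell, with median log2 effects of 1.26, 1.53 and 1.59, against medians over all genes tested of -0.01, 0.07 and 0.01. The genes with the largest rises were Cd14, a co-receptor for bacterial lipopolysaccharide (log2 effects from 3.21 to 4.22, limma adjusted p at most 5.97e-06), the pore-forming Mpeg1 (2.04 to 2.54, at most 3.56e-05) and Ms4a7 (2.00 to 2.41, at most 1.14e-06). Of 18 genes of resident dermal macrophages, 1 fell in abdomen, 3 rose in back, and cheek had 2 rises and 1 fall. Their median effects were -0.30, 0.03 and -0.15. Among these, Cbr2 rose in back (0.81, with 0.20 in abdomen and 0.24 in cheek not called), the scavenger receptor Stab1 rose in back and cheek (effects from 0.74 to 1.39 over the sites) as did platelet factor Pf4 (0.75 to 1.41), while the chemokine Ccl24 fell in abdomen and cheek (-1.52 and -1.49) with an effect of -0.42 in back (limma adjusted p 0.121). The difference between sites was not called for Cbr2 or Ccl24 (F test, limma adjusted p of 0.228 and 0.233).

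Of 18 genes of monocytes and inflammatory macrophages, 12, 15 and 14 rose at the same sites and none fell, with median log2 effects of 2.58, 3.01 and 2.48. Only 13 of the 18 reached 0.5 FPKM in at least 4 unwounded libraries. The others entered the fit through their wound libraries, so these counts and medians are not independent of the filter. The acute-phase gene Saa3 had the largest effects (8.01 to 8.13, limma adjusted p at most 8.35e-06) and mean FPKM of 3.01, 6.55 and 1.67 in unwounded abdomen, back and cheek, against 810, 1434 and 767 in the wounds. It was followed by the cytokine Il1b (5.51 to 7.11, adjusted p at most 1.09e-05) and the lectin receptor Clec4d (5.45 to 6.41, at most 8.87e-07). Clec4d had unwounded group means between 0.292 and 0.298 FPKM and entered the fit through its wound libraries. Of 20 lipid-handling and repair genes, 4, 9 and 7 rose and 1 fell, in back, with median effects of 0.26, 0.54 and 0.45. Spp1, which encodes the secreted matrix protein osteopontin, rose most in this list (4.92 to 5.44, adjusted p at most 1.67e-05), followed by the elastase Mmp12 (1.71 to 2.24, called in back and cheek) and the haem-degrading enzyme Hmox1 (1.37 to 2.11, at most 4.95e-05). Lipoprotein lipase, Lpl, was the gene that fell in back. For the members, the mean effect at abdomen, back and cheek was -0.42, 0.20 and 0.12 over the resident pair and 1.83, 2.00 and 1.99 over Gpnmb and Trem2, beside 1.31, 3.04 and 1.6 for Nos2.

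**Figure D4:**
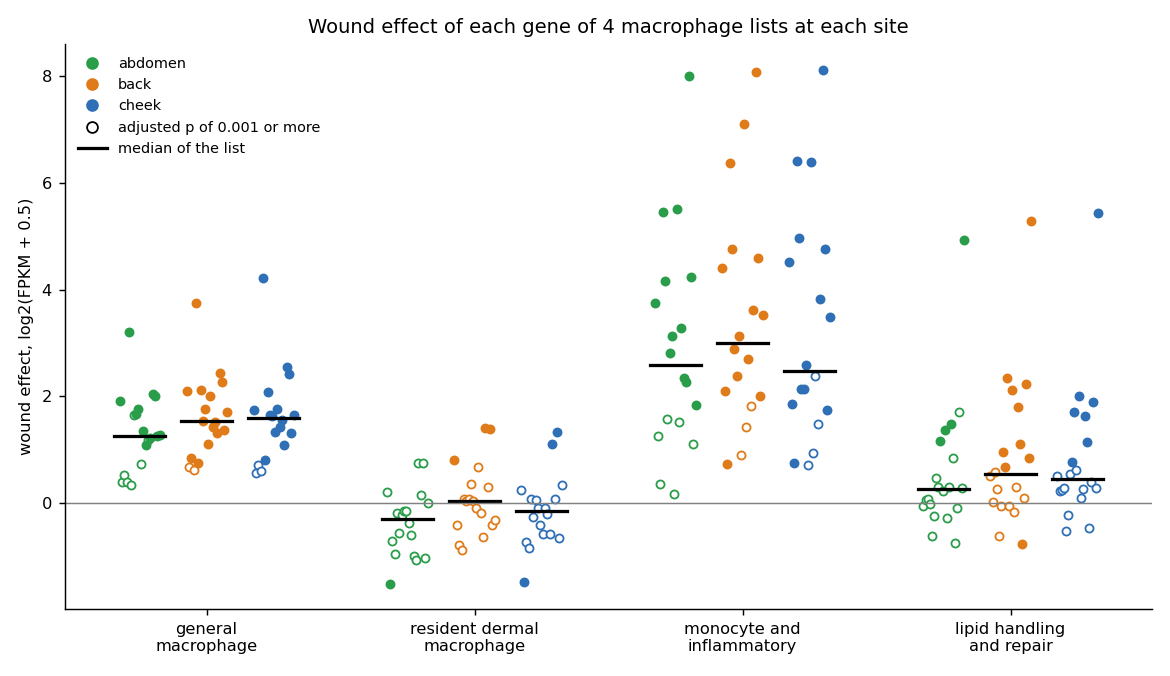
Log2 wound effect (vertical axis) of each gene of 4 macrophage lists at abdomen, back and cheek, filled where the limma adjusted p was under 0.001, with black bars for list medians. Medians of the resident list lie between -0.30 and 0.03 and those of the monocyte and inflammatory list between 2.48 and 3.01. Of the 18 genes of the monocyte and inflammatory list, 13 reached 0.5 FPKM in at least 4 unwounded libraries.

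Genes that handle arginine or signal to macrophages were also listed. Of 14 tested genes of arginine and nitric oxide metabolism, 3 rose and 1 fell in abdomen, the same numbers applied to back, and 2 rose in cheek. Among all genes tested, 3.92%, 10% and 6.50% rose at abdomen, back and cheek, and 1.04%, 4.37% and 2.19% fell. Whether counts this small exceed these shares was not tested. Ass1, which regenerates arginine from citrulline, had effects from 1.73 to 2.29 and passed in abdomen and back (cheek limma adjusted p 0.00103). Ddah1, which removes inhibitors of nitric oxide synthases, rose at each site (1.15 to 1.69, adjusted p at most 2.90e-04), as did spermidine synthase Srm (0.51 to 0.69, at most 5.94e-04). Of 17 tested genes for growth and polarising signals, 16 reached 0.5 FPKM in at least 4 unwounded libraries. At each site 5 of the 17 rose and none fell. Among them were the alarmin Il33 (2.19 to 2.72, adjusted p at most 4.39e-04), the interleukin-4 receptor chain Il4ra (1.39 to 1.94, at most 5.10e-05) and the interleukin-10 receptor Il10ra (1.47 to 1.76, at most 4.10e-05). The ligand genes Il4 and Il13 themselves were low, with group means of 0.00 to 0.09 FPKM for Il4 and 0.05 to 0.31 FPKM for Il13, and were not tested.

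Between sites of unwounded skin, none of the 9 members tested passed an adjusted p of 0.05, while 2.67% of 13956 genes differed between abdomen and back, 2.57% between abdomen and cheek and 1.05% between back and cheek. Unadjusted p values under 0.05 were found for 2, 1 and 1 of the 9 members in these comparisons and for 22.0%, 19.0% and 21.6% of genes tested. The median log2 difference over all genes was -0.12 from abdomen to back and 0.14 from back to cheek, so small shifts of single genes cannot be separated from this offset. The largest differences were those of Trem2 and Cd163. Trem2 was higher in cheek than in abdomen by 1.16 (log2, SE 0.35, limma adjusted p 0.104) without overlap of libraries, as for 10.6% of genes. Cd163 was higher in cheek than in back by 0.91 (SE 0.25, adjusted p 0.106), also without overlap, as for 14.6% of genes. Nos2 libraries of abdomen and back did not overlap either (0.33, SE 0.18, adjusted p 0.289), as for 13.3% of genes. Chil3 was below the filter in unwounded skin, and exact permutation tests on its FPKM gave two-sided p of 0.343, 0.143 and 0.514 for abdomen and back, abdomen and cheek, and back and cheek, where 4 against 4 libraries cannot go below 0.0286.

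Between wounds of different sites, Nos2 was the only member called. It was higher in back than in abdomen wounds by 2.06 (log2, SE 0.39, limma adjusted p 0.0363), a comparison in which 1.27% of 14023 genes differed and 0.506% were higher in back. The libraries of the sites did not overlap, as for 9.16% of genes, and the mean in back was 5.11 times that in abdomen. This call was lost when abdomen mouse 2, 3 or 4 (limma adjusted p of 0.0965, 0.0801 and 0.0504), back mouse 1, 2 or 3 (0.0894, 0.101 and 0.104) or cheek mouse 2 (0.0535) was left out, with differences from 1.83 to 2.14. From back to cheek wounds Nos2 was lower by 1.54 on the log2 scale (SE 0.39, adjusted p 0.0580), again without overlap, as for 21.3% of genes. That comparison passed without abdomen mouse 2 (adjusted p 0.0495) or 3 (0.0486), and no member was called in it or from abdomen to cheek, where 2.5% and 10.8% of genes differed. Unadjusted p values under 0.05 were found there for 1 and 2 members and for 26.1% and 31.6% of genes. From abdomen to back wounds they were found for 5 of the 10 members and for 2310 of the 14023 genes.

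Arg1 was higher in back than in abdomen wounds by 1.43 (SE 0.42, limma adjusted p 0.120), and its libraries did not overlap, as for 9.16% of genes. Mrc1 was higher in cheek than in abdomen wounds by 0.52 (SE 0.15, adjusted p 0.0505) and passed without abdomen mouse 2 (0.63, adjusted p 0.0312). Trem2 was higher in cheek than in abdomen wounds by 1.31 (SE 0.50, adjusted p 0.107) and passed without abdomen mouse 4 (1.76, adjusted p 0.0318). Cd163 in wounds was higher in cheek by 0.91 against abdomen and 0.84 against back (SE 0.45 each), with adjusted p of 0.189 and 0.256.

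Whether the wound effect itself differed between sites was tested with a moderated F test, which no member passed and 0.0208% of 14423 genes did. The smallest limma adjusted p among the members was that of Nos2 (0.149, unadjusted 0.000227), whose wound effect was larger in back than in abdomen by 1.73 and smaller in cheek than in back by 1.44 (SE 0.31 each). Without abdomen mouse 1 its adjusted p was 0.0220. Arg1 followed (adjusted p 0.247), with a wound effect larger in back than in abdomen by 1.45 (SE 0.37), and then Mrc1 (0.270), with an effect larger in back than in abdomen by 0.62 (SE 0.19). Unadjusted p values were under 0.05 for these 3 and for Adgre1 (adjusted p 0.314), and for 12.9% of genes tested. For Trem2, Gpnmb and Chil3 the differences between sites were 0.33 or less in size with SE between 0.23 and 0.29.

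Relatives of the members behaved in several ways. Of 12 tested paralogues, 4 rose in abdomen and 5 at each of the other sites, and 1 fell, in back. Among all genes tested, 3.92%, 10% and 6.50% rose at abdomen, back and cheek, and 4.37% fell in back. The adhesion receptor Adgre5 (1.02 to 1.33, limma adjusted p at most 4.88e-04) and the chitinase-like Chil1 (2.79 to 3.32, at most 2.11e-04) rose at each site. The neutrophil-associated resistin-like gene Retnlg rose in back and cheek, with group means from 0.552 to 1.53 FPKM in unwounded skin and from 11.9 to 20.6 FPKM in wounds, whereas Retnla was lower in 12 of 12 wounds. Trem1 and Trem3, receptors of neutrophils and monocytes, stood at group means of 0.0175 to 0.03 and 0.015 to 0.03 FPKM in unwounded skin and rose at each site, to 10.2 to 16.7 and 2.99 to 6.01 FPKM, having entered the fit through their wound libraries alone. Nos1 fell in back (-2.10, limma adjusted p 6.59e-04) with effects of -0.72 in abdomen and -0.99 in cheek that were not called, and its difference between sites did not pass the F test (adjusted p 0.370). Adgre4, Arg2, Lamp1, Mrc2, Nos3 and Pmel did not pass the threshold at any site. Chil4 was listed at 0 FPKM in unwounded skin of all mice and had group means of 0.04 to 0.505 FPKM in wounds, and it was not tested.

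The libraries of 1 site and state also varied together, which was described by the correlation of deviations from the 6 group means over the 24 libraries among 13125 genes. Libraries of a mouse share the animal, libraries differ together in tissue composition, and no test was made. The genes most like Adgre1 were Rassf4 (r = 0.905) and Serinc3 (0.897), and those most like Cd68 were the endosomal receptor chaperone Unc93b1 (0.934) and the leukocyte GTPase Rac2 (0.891). Mrc1 was closest to the flagellin receptor Tlr5 (0.905) and Abca9 (0.887), and Cd163 to Esyt3 (0.796) and the vessel ligand Angpt1 (0.787). Nos2 was closest to Ch25h (0.763) and the monocyte chemokine Ccl7 (0.724), Arg1 to Alkbh5 (0.753) and Adarb1 (0.743), and Chil3 to Septin1 (0.734) and Naaa (0.684). Retnla was closest to Rem1 (0.810) and Fastkd1 (0.774), Gpnmb to the lysosomal thioesterase Ppt1 (0.728) and the coagulation factor gene F7 (0.677), and Trem2 to Fam120b (0.755) and Serhl (0.752). Among the members themselves, Adgre1 varied with Mrc1 (0.66) and Cd68 (0.58) and Nos2 with Arg1 (0.50), whereas Arg1 varied against Retnla (-0.62) and Trem2 (-0.45).

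Markers of other cells moved with wounding. Their counts stand beside the 3.92%, 10% and 6.50% of all genes tested that rose at abdomen, back and cheek. The shares that fell were 1.04%, 4.37% and 2.19%. Of 8 neutrophil genes 6 rose at each site and 1, Il1r2, fell in abdomen. Ly6g stayed low, with group means of at most 0.0175 FPKM in unwounded skin and 0.135 to 0.515 FPKM in wounds. It entered the fit through its wound libraries, as did Mmp8, at group means of 0.09 to 0.2525 FPKM in unwounded skin. The rises were led by S100a8 (5.55 to 7.17, limma adjusted p at most 6.06e-05) and S100a9 (6.23 to 7.54, at most 5.89e-06), and the summed level of the list went from between 104 and 240 FPKM in unwounded libraries to between 453 and 2480 in wounds. Of 5 keratinocyte genes 3 rose at each site (Krt1, Krt6b and Krt14, the last by 1.54 to 1.99), while Krt5 had effects of 0.27 to 0.50 and was not called. The 5 adipocyte genes had median effects of -1.33, -1.65 and -0.73, and 3 of them fell in back (Cfd, Cidec and Plin1, the last by 1.65), while Adipoq had effects from -1.32 to -0.73 and was not called. Of 5 lymphatic genes 1 rose at each site, Pdpn, which activated fibroblasts and keratinocytes also express, while Prox1 and Flt4 lay between -0.24 and 0.19. Both osteoclast genes tested rose in back (Dcstamp and Atp6v0d2) and 1 in cheek (Atp6v0d2). Both entered the fit through their wound libraries, so these counts are not independent of the filter. Atp6v0d2 had group means of 0.3825 to 0.4775 FPKM in unwounded skin. Dcstamp had group means of 0.245 to 0.310 FPKM in unwounded skin and 1.26 to 1.39 in wounds, and Ocstamp, not tested, had none above 0.610.

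In other lists few genes were called. None was called among 5 mast cell genes (Cpa3 and Cma1 between -0.54 and 0.53), 2 eosinophil genes (Siglecf and Ccr3, at group means of 0.645 FPKM or less), 5 melanocyte genes (Mlana and Dct between -1.14 and -0.31), 5 fibroblast genes (Col1a1 between -1.0 and -0.68, Pdgfra between -0.01 and 0.59) and 5 skeletal muscle genes (Acta1 and Ckm between -2.43 and -0.30, list medians of -0.58, -2.20 and -1.66 at abdomen, back and cheek). Muscle genes varied widely between libraries of 1 group, with a summed level from 434 to 13416 FPKM in unwounded abdomen. Of 6 Langerhans and dendritic cell genes 1 rose, Flt3 in back (Cd207 between -0.79 and -0.57 and Epcam between -0.30 and -0.07, not called), and of 3 T cell genes 1 fell, in back (Cd3g, by 0.94, with Cd3e between -0.57 and -0.40 and Cd2, at -0.10 to 0.65, not called). The part of these cell types in the values of the members was not tested.

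The abdomen wound of mouse 4 stood apart in several members at once. It held the lowest Arg1 of the abdomen wounds (24.3 FPKM) and the highest Retnla (383), Trem2 (35.2), Gpnmb (93.7) and Cd68 (218). Its neutrophil and keratinocyte lists had the lowest mean log2 levels of the abdomen wounds (4.05 against 4.42 to 5.12, and 10.8 against 11.5 to 12.0), and its adipocyte list the highest (5.02 against 4.40 to 4.82). In cheek, mouse 1 held the highest Retnla in both states (689 and 213 FPKM), and its wound had the highest adipocyte level (5.88 against 4.39 to 4.60). Without abdomen mouse 4 the counts of called members were 5 in abdomen and 7 at each of the other sites, and Retnla in abdomen wounds still did not reach the threshold (limma adjusted p 0.00184).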

How the data were processed

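FPKM per gene were made by the authors, who aligned BGISEQ-500 paired-end reads to mm10 and quantified genes with RSEM, and deposited them rounded to 2 decimals. The submitters' processing notes name HISAT2, Bowtie2 2.2.5 and RSEM 1.2.12. A further 18 columns of the authors' own comparisons were not used. From these FPKM, log2(FPKM + 0.5) was computed for genes at 0.5 FPKM or more in at least 4 libraries of a fit, and tested with limma 3.58.1 (trend and robust settings) with Benjamini-Hochberg adjustment over all genes tested. Wound effects came from 24 libraries with a term for each mouse, since the labels give both libraries of a mouse, whose deviations correlated within sites (mean r 0.281 to 0.348). Contrasts of sites used the 12 unwounded or the 12 wound libraries alone. The replicates of a group were 4 different mice, and depth is unknown.

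The members and lists were chosen with earlier results of these data known. Named were all members, from each list the 3 largest rises and 2 largest falls called at 2 or more sites with 1 direction in 12 mice, the first 2 genes of each marker list, all listed paralogues, and the 2 genes most like each member (of mean FPKM 1 or more). Genes outside this rule (Cbr2, Lpl, Cd2, Il1r2, Ly6g, Mmp8, Krt1, Krt6b, Cfd, Cidec, Pdpn, Atp6v0d2, Flt3) were named after their values were seen. Positions came from the RefSeq annotation of GRCm38. Alternatives were another pseudocount, filter, scaling, moderation or block, and leaving out each mouse.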

Additional observations from a re-analysis of the deposited data

Results flagged for a closer look

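In 6 of 60 sets of 4 libraries (10 members, 3 sites, both states) a single library lay farther from its neighbours than Dixon's criterion at the 95% level allows, which chance gives for about 1 in 20 groups. For Nos2 in cheek wounds this was mouse 4, with 1.05 FPKM where the nearest library had 2.88. For Chil3 in abdomen wounds it was mouse 2, with 6.34 FPKM beside 3.83. For Retnla it was mouse 4 among abdomen wounds (383.33 FPKM beside 50.32) and mouse 1 in cheek, both among unwounded libraries (688.93 beside 143.34) and among wounds (213.15 beside 31.81). For Trem2 in abdomen wounds it was mouse 4, with 35.22 FPKM beside 10.66.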

How the results depend on the processing

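Over the settings other than leaving out a mouse, 861 of 890 values kept their direction and their side of the threshold, 5 lost a call, 16 gained one and 8, none of them called, changed direction. With 1 mouse left out the numbers were 1091 of 1152, with 13, 9 and 39. The number of members called in abdomen wounds was 1 when only the 8 libraries of that site were fitted, a fit with fewer libraries, and 9 at an adjusted p of 0.05. With a pseudocount of 1, 1 member was called from abdomen to cheek wounds (Mrc1, limma adjusted p 0.050) and 1 from back to cheek wounds (Nos2, 0.0499), and 1 was also called from back to cheek wounds when all 24 libraries were fitted (Nos2, 0.0111). With a mouse left out, the counts ranged from 4 to 6 in abdomen, 6 to 7 in back and 5 to 7 in cheek for the wound effect, and from 0 to 1 for the difference between sites and for each comparison of wounds. The cause of these changes was not tested.

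The term for the mouse is the pairing of the libraries. Without this replicate block, 5, 6 and 7 members were called in abdomen, back and cheek, the additional one being Gpnmb in cheek. Between sites equal mouse numbers name different mice, so a block there only shares a number. With it, 1 member was called from abdomen to cheek in unwounded skin (Trem2, limma adjusted p 0.0471) and 1 in wounds (Mrc1, 0.0474).

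Under median-ratio scaling and quantile normalization, respectively, the unwounded difference of Arg1 from abdomen to back was 0.11 and 0.049, that of Mrc1 from abdomen to cheek -0.0043 and -0.018, and that of Adgre1 from back to cheek -0.11 and -0.10. Under median-ratio scaling the wound difference from back to cheek was -0.026 for Mrc1 and -0.069 for Trem2. Direction also depended on single mice, none of these values being called. Wound effects of Cd163 lay between -0.26 and 0.065 in back and between -0.40 and 0.085 in cheek. In unwounded skin from abdomen to back the ranges were -0.15 to 0.26 for Cd68, -0.094 to 0.088 for Arg1 and -0.82 to 0.10 for Retnla. From abdomen to cheek they were -0.25 to 0.030 for Adgre1, -0.10 to 0.16 for Mrc1, -0.20 to 0.14 for Arg1 and -0.021 to 0.18 for Gpnmb. From back to cheek they were -0.084 to 0.20 for Adgre1, -0.18 to 0.029 for Nos2, -0.18 to 0.16 for Arg1 and -0.11 to 0.44 for Trem2. In wounds the range was -0.19 to 0.41 for Cd163 from abdomen to back and -1.48 to 0.45 for Retnla from abdomen to cheek. From back to cheek wounds it was -0.041 to 0.15 for Mrc1, -0.24 to 0.24 for Chil3, -0.11 to 0.090 for Gpnmb and -0.40 to 0.28 for Trem2. The depth of the libraries is unknown, which limits genes near 0 FPKM such as Chil3 and Nos2 in unwounded skin.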
